A study of Homo sapiens with 14 samples.

Results

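The interval examined here is a 2 Mb stretch of human chromosome 8 around MYC, taken from 14 ATAC-seq peak lists (hg19, chr8:127700000-129700000, with MYC at chr8:128748315-128753680 and PVT1 next to it downstream). Its limits are positions on the chromosome, and the interval was chosen with earlier results of these data known. Every deposited peak that overlapped it was taken, which gave 1077 of the 1971391 peaks in the 14 lists. Merged over all libraries these peaks formed 239 of 410350 regions. The window reaches 1048 kb before the start of MYC and 951.7 kb beyond it. Distances below are from the MYC start to the middle of a region, negative before it and positive after it.

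MYC encodes a transcription factor that drives cell growth and division, and PVT1 is the long non-coding RNA gene that follows it. In RefSeq's gene order (GRCh38, used here for names and order only), the nearest protein-coding gene before MYC is POU5F1B, among non-coding genes such as CASC11, CASC8, CCAT1 and PCAT1. The next one after PVT1 is GSDMC. Such a gene desert is known to hold distal enhancers of MYC, and different tissues use different ones. ATAC-seq marks accessible DNA, such as active promoters and enhancers, by where the Tn5 transposase inserts.

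The libraries came from 2 cell lines. LHCN is an immortalised human myoblast line, and was made to express PAX3-FOXO1, a chimeric transcription factor known from alveolar rhabdomyosarcoma, or an empty vector, for 72 h. RH30 is a rhabdomyosarcoma line that carries this fusion, and was given 200 nM QC6352, a small-molecule inhibitor of KDM4 histone demethylases, or 0.1% DMSO, or was transduced with a control hairpin (shCtrl) or hairpins against KDM4B (shKDM4B-813, shKDM4B-814), all for 72 h. Each of the 7 groups had 2 libraries, so 4 were from LHCN and 10 from RH30. The promoter that drives the fusion in LHCN is not given in the labels. The labels do not say that replicates were separate cultures, so p-values measure only the spread between libraries, which may be technical. Each line stands for itself, not for myoblasts or tumours as classes. No hg19 annotation was used here, so the lines were not checked against marker genes, and no region is assigned to an exon or intron of PVT1.

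The 6 hairpin libraries carried names that went against their labels. The peak names inside the files labelled shCtrl read sh813, those labelled shKDM4B-813 read sh814, and those labelled shKDM4B-814 read shCtrl. In the other 8 libraries names and labels matched. Hairpin groups are therefore written as "labelled", and peak numbers, gained and lost regions and counts of ranks are given under both readings. Other hairpin values are by label.

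Deposited lists held 93488 to 176899 peaks, so lists were first cut to the same number of strongest peaks. "Strength" is the rank of a peak within its own list by the authors' −log10 q, given as a percentile (100 is the strongest). Many peaks shared 1 value. The median window peak was tied with 0.646% to 0.843% of its list in LHCN and with 1.85% to 5.25% in RH30, so small differences in percentile have no meaning. The fold values given are the authors' own, and describe peaks within a list. Read depth is unknown from these files.

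The MYC window was far richer in peaks in LHCN than in RH30. With every list cut to 93488 peaks, vector libraries had 86 and 92 peaks in the window and PAX3-FOXO1 libraries had 83 and 93. The DMSO libraries had 40 and 40, and the QC6352 libraries had 35 and 41. Those labelled shCtrl had 25 and 26, those labelled shKDM4B-813 had 42 and 39, and those labelled shKDM4B-814 had 34 and 33. The lines did not overlap. The mean was 88.5 ± 4.80 peaks in LHCN (SD, n = 4) and 35.5 ± 6.10 in RH30 (SD, n = 10), a difference of −53.0 (exact permutation test over 1001 splits, two-sided p = 0.000999, the smallest it can give). This test, and that of the window's share of chromosome 8 below, takes single libraries as exchangeable. They form 7 groups of 2 with different treatments within 2 lines, so the p-value overstates the evidence.

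**Figure D1:**
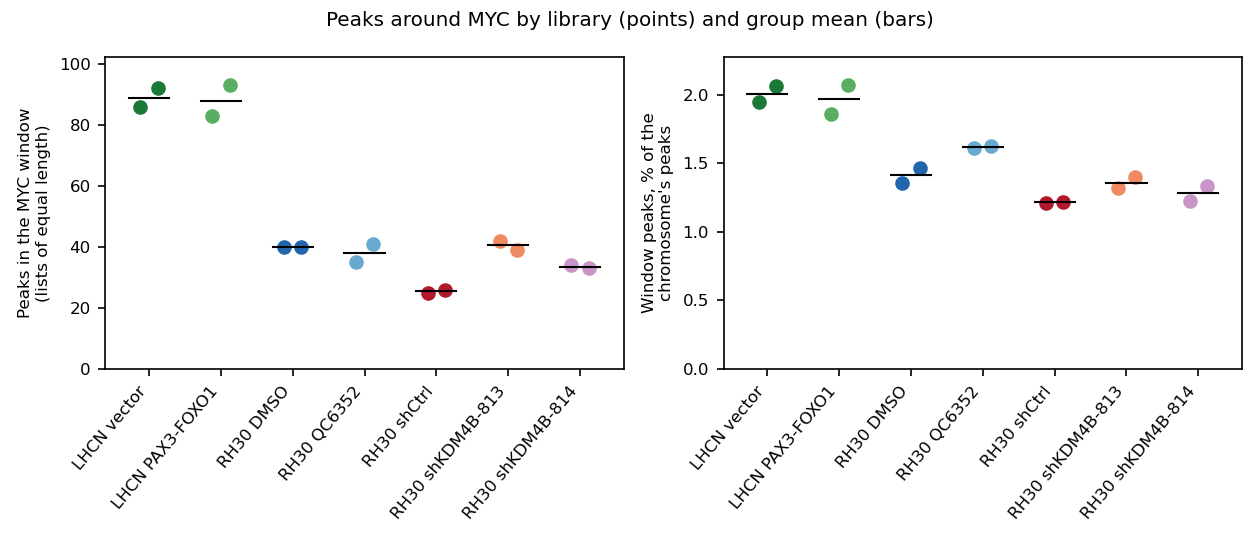
Number of peaks in the 2 Mb MYC window in each library (left) and the same as a percentage of the peaks on chromosome 8 (right), with every list cut to its 93488 strongest peaks. Points are libraries, bars are group means and hairpin groups are by label. All 4 LHCN libraries sit between 83 and 93, and all 10 RH30 libraries between 25 and 42, and the lines do not overlap in the right panel either.

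Chromosome 8 as a whole moved with this. It held 4.73% to 4.81% of the equal-length list in LHCN and 2.20% to 3.41% in RH30. The flank of the same length before the window held 66 to 68 peaks in LHCN and 17 to 38 in RH30, and the flank after it 99 to 109 and 23 to 59. The deficit in RH30 was therefore not particular to the window. As a share of the chromosome's own peaks the window still differed, at 1.99% ± 0.101 in LHCN (SD, n = 4) and 1.38% ± 0.151 in RH30 (SD, n = 10), a difference of −0.609 percentage points (exact permutation test, two-sided p = 0.000999). The flanks fell in a like way. Their means in LHCN and RH30 were 67.5 and 26.6 before the window and 106 and 42.0 after it, beside 88.5 and 35.5 in the window. The share therefore does not set the window apart from its flanks. DNA copy number of either line was not analysed here, and its part in the result was not tested.

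Window peaks were also wider and of higher fold in LHCN. Their mean width was 544 to 594 bp in LHCN and 358 to 485 bp in RH30, and together they covered 46395 to 54217 bp and 9318 to 19389 bp. The authors' mean fold was 18.3 to 28.2 in LHCN and 6.60 to 11.1 in RH30. Width and fold over the whole lists were not compared, so neither difference is shown to be particular to the window. Relative to the rest of its own list the window did not stand apart, with a median percentile of 48.8 to 59.7 in LHCN and 46.5 to 61.1 in RH30. The most accessible region of the window ranked at the 98.0 to 99.1 percentile in LHCN and at 79.2 to 94.6 in RH30.

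Nearly all that was accessible in RH30 was also accessible in LHCN, and not the reverse. In the lists as deposited, 234 of the 239 regions had a peak in LHCN and 71 in RH30. Both lines shared 66 regions, which is 93.0% of those in RH30 (40.3% over all regions of the series) and 28.2% of those in LHCN. A further 168 regions (70.3%) were in LHCN alone, against 48.8% on chromosome 8 and 27.6% over the series. Only 5 regions (2.09%) were in RH30 alone, against 22.7% on chromosome 8 and 43.3% over the series. Of these 5, the one at +309.0 kb was in 4 RH30 libraries and the others, at −737.2, +97.2, +591.0 and +619.2 kb, were each in 1.

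The difference between the lines was uneven along the desert. Between 100 and 500 kb before MYC the LHCN libraries held 17 to 21 regions (mean 18.8) and the RH30 libraries 0 to 2 (mean 1.00), again at equal list length. In the same span after MYC they held 27 to 33 (mean 29.2) and 14 to 20 (mean 17.4). Further out, over 500 kb before MYC, LHCN had 16 to 20 and RH30 2 to 8, and over 500 kb after it 9 to 14 and 3 to 8. The span from 5 to 100 kb after MYC held 6 or 7 regions in LHCN and 1 or 2 in RH30. The 5 to 100 kb before MYC were nearly empty in both, with at most 1 region per library.

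In steps of 100 kb, the RH30 peaks clustered from +100 to +200 kb. LHCN had 10 to 12 peaks there (mean 11.5) and RH30 8 to 12 (mean 10.2), so the lines overlapped. This step held more peaks than any other step of the window in the mean of either line. All 10 RH30 libraries had 0 peaks in 5 steps (the outermost steps are cut short by the window). These were −400 to −300 kb, where every LHCN library had 3, −200 to −100 kb, where LHCN libraries had 5 to 6, and 3 steps where LHCN libraries had at most 2 (−1100 to −1000, −800 to −700 and +700 to +800 kb). An empty step here means no peak among the 93488 strongest, not closed chromatin.

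**Figure D2:**
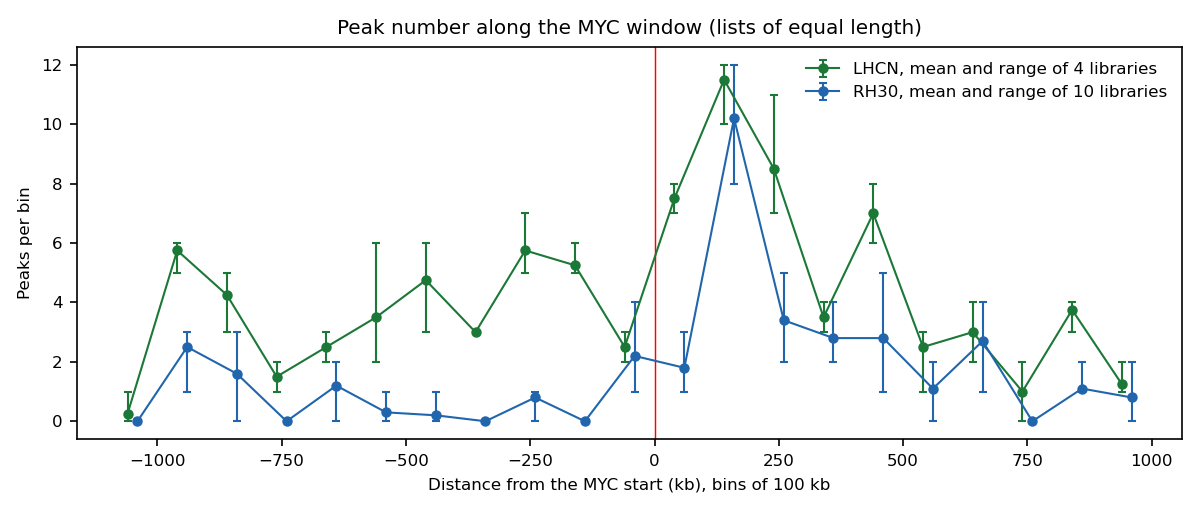
Peaks per 100 kb against distance from the start of MYC, at equal list length. Points are means of the 4 LHCN or 10 RH30 libraries and bars their lowest and highest values, set slightly to either side of each step's middle. Both lines are highest from +100 to +200 kb, and their ranges lie apart in every step from −600 to −100 kb.

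**Figure D3:**
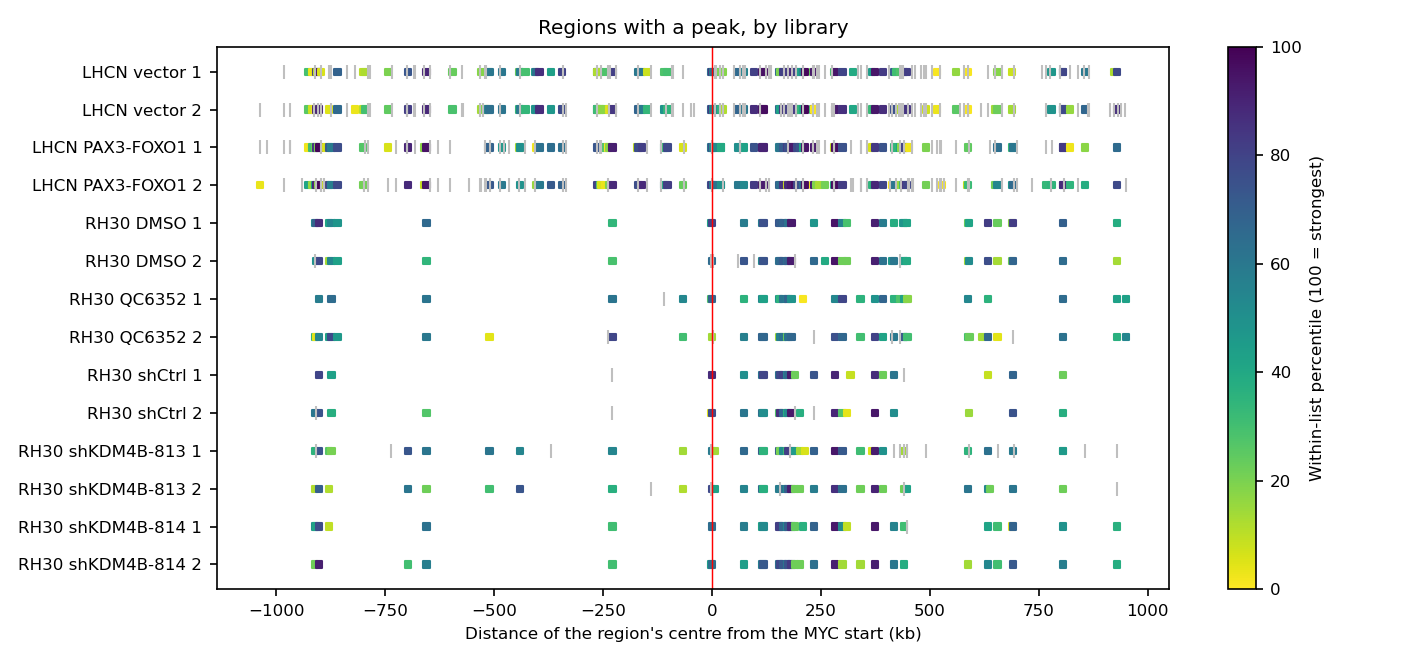
Map of the regions with a peak in the MYC window, 1 row per library, by distance of the region's centre from the start of MYC in kb. Squares, coloured by within-list percentile, are regions with a peak among the 93488 strongest of a list, and grey ticks are regions with a weaker deposited peak only. LHCN rows are filled along the window, and RH30 rows thin out before MYC and cluster from +100 to +200 kb.

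The start of MYC itself was accessible in every library. Its region, chr8:128747112-128748854 (centre −0.33 kb), overlaps the first bases of the gene. Its percentile was 84.4 and 84.1 with vector and 76.4 and 83.7 with PAX3-FOXO1. The RH30 values were 79.6 and 65.0 with DMSO and 67.9 and 13.8 with QC6352. It was 87.6 and 76.4 in the libraries labelled shCtrl, 58.9 and 78.1 in those labelled shKDM4B-813, and 64.8 and 63.4 in those labelled shKDM4B-814. The second QC6352 library was the lowest, and its replicate was not low. Group means were 84.3 ± 0.17 with vector, 72.3 ± 10.4 with DMSO and 40.9 ± 38.3 with QC6352 (SD, n = 2), so the QC6352 mean rests on that library. It also rests on the cut to equal length, since that library had the longest list. As a percentile of the lists as deposited, the region was at 73.1 and 54.4 with QC6352, 81.9 and 74.7 with DMSO, and 63.4 to 91.5 in the other RH30 libraries.

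Close to the start, 2 further regions were weaker or missing in RH30. At −1.90 kb (chr8:128746167-128746655) LHCN percentiles were 64.8, 69.8, 60.5 and 76.1, and 4 RH30 libraries kept a peak, with percentiles of 4.15 to 44.3. In the lists as deposited 7 RH30 libraries had a peak there. The weaker ones were in the second DMSO library (fold 4.39) and those labelled shKDM4B-813 (fold 4.05 and 4.92). At +2.1 kb (chr8:128749509-128751331), inside the MYC gene, the LHCN percentiles were 59.8, 57.5, 53.8 and 59.7. No RH30 library had a peak there among its 93488 strongest, and 2 had a weaker deposited one (1 with DMSO at fold 4.39 and 1 with QC6352 at fold 3.32). A small region at +0.98 kb had only weak peaks, in the PAX3-FOXO1 libraries.

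All 14 equal-length lists shared 13 of 127 regions. This share of 10.2% compares with 9.68% over the whole series, and was close to that background. They lay at −902.3, −0.33, +73.9, +115.8, +118.3, +154.3, +163.1, +171.7, +175.5, +182.1, +282.7, +373.1 and +806.1 kb. Of these 13 regions 7 fell between +100 and +200 kb, the step that held the most peaks in the mean of either line.

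The regions at +282.7 and +373.1 kb had the highest median percentiles of these. At +282.7 kb (chr8:129030651-129031469) the percentile was 93.0 to 97.2 in the 4 LHCN libraries. It was 94.6 and 94.5 with DMSO, 53.5 and 75.4 with QC6352, and 86.1 to 94.1 in the 6 hairpin libraries. At +373.1 kb (chr8:129121046-129121810) it was 94.4 and 93.6 with vector, 83.1 and 89.1 with PAX3-FOXO1, 91.2 and 91.0 with DMSO, 48.6 and 80.4 with QC6352, and 87.6 to 94.0 with hairpins. At +182.1 kb (chr8:128929603-128931186) it was 87.3 to 92.9 in LHCN, 93.0 and 92.5 with DMSO, 48.6 and 66.8 with QC6352, and 81.9 to 93.6 with hairpins. In all 3 regions the QC6352 libraries were the lowest of the 14 at equal list length.

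Far before MYC, the −902.3 kb region (chr8:127845431-127846641) ranked at 94.4 and 90.4 with vector, 98.6 and 99.1 with PAX3-FOXO1, 87.8 and 78.9 with DMSO and 57.8 and 53.9 with QC6352. It was the strongest window region of both PAX3-FOXO1 libraries. The pair at +115.8 and +118.3 kb ranked above the 90 percentile in all 4 LHCN libraries. In RH30 their percentiles were 41.4 to 72.0 and 35.5 to 79.5.

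A set of 22 regions was in all 4 LHCN and no RH30 equal-length list. This share of 17.3% of 127 compares with 5.64% over the series and 12.3% on chromosome 8, and 5 of the 22 had a weaker deposited peak in RH30. Of the 22, 15 lay before MYC, 11 of them at 100 to 500 kb. The split of all 127 regions by position is not given here. In the lists as deposited that span before MYC held 35 of the 239 regions. The strongest by their lowest LHCN percentile were at +195.8 kb (77.8 to 82.7), +95.9 kb (74.4 to 87.4), −263.6 kb (73.3 to 79.7), −344.7 kb (63.9 to 80.3) and −168.8 kb (59.8 to 76.9), and none of these 5 had any deposited peak in RH30. The reverse pattern, all 10 RH30 and no LHCN list, had 0 of 127 regions (1.74% over the series and 1.28% on chromosome 8).

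**Figure D4:**
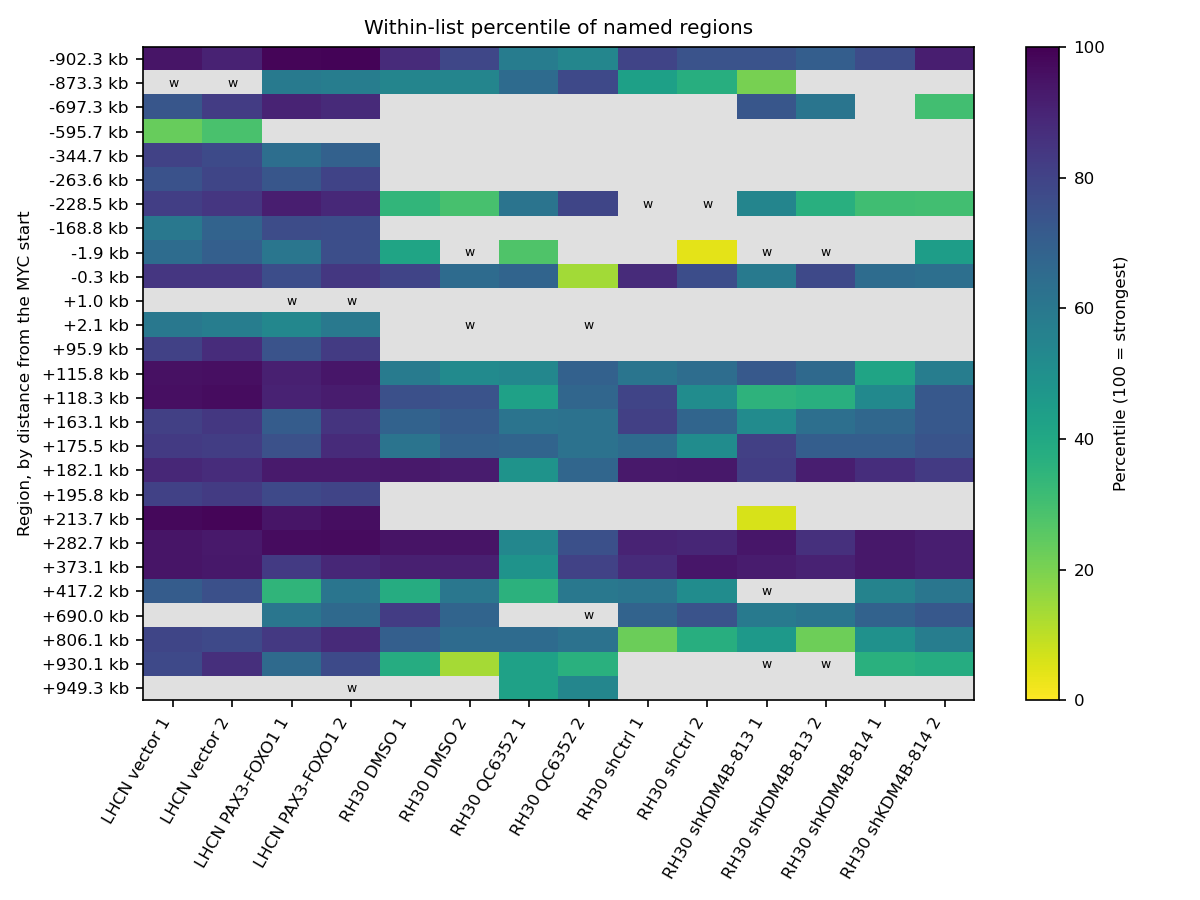
Within-list percentile of selected window regions (rows, by distance from the start of MYC in kb) in each of the 14 libraries (columns), at equal list length. Grey cells have no peak and "w" marks a weaker deposited peak only. Regions at +282.7, +373.1 and +182.1 kb are pale in the QC6352 columns, and several rows are filled in LHCN only.

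The lines were also compared with control libraries alone. These libraries are part of those compared above, with the same peak numbers. The lines did not overlap there, so peak numbers had to separate here too and add no support. With the 4 RH30 controls (DMSO and those labelled shCtrl) against the 2 vector libraries, peak numbers were 40, 40, 25 and 26 against 86 and 92, a difference of −56.2 (exact permutation test, two-sided p = 0.0667, the smallest this design allows). Of 104 regions, 48 (46.2%) were in both vector and none of the RH30 control lists, against 18.2% over the series and 32.7% on chromosome 8. Another 2 (1.92%) were in all RH30 controls and neither vector list, against 6.70% over the series and 4.28% on chromosome 8. All 6 lists shared 15 regions. Among these all RH30 controls ranked below both vector libraries at 7 (46.7%, 28.4% over the series) and above both at 2 (13.3%, 33.7% over the series). Libraries labelled shCtrl are controls by label only. The 2 DMSO libraries, whose names and labels match, had 40 peaks each and are the RH30 controls nearest to LHCN in number.

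The leading region absent from the RH30 controls was at +213.7 kb (chr8:128961344-128962601). It was the strongest region of the window in both vector libraries, at percentiles 98.0 and 98.6, and ranked at 94.3 and 96.2 with PAX3-FOXO1. In RH30, 9 libraries had no deposited peak there, and 1, labelled shKDM4B-813, had a weak one at percentile 6.14. Next in strength were −395.9 kb (86.7 and 87.3 with vector), +95.9 kb, +195.8 kb and −344.7 kb, none of which had a peak in any RH30 list. The 2 regions of the opposite kind were at +690.0 and −873.3 kb, and at the latter both vector libraries had a weaker deposited peak.

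With PAX3-FOXO1 in LHCN, some regions were in both libraries of 1 group only, and the number of peaks did not overlap between the groups. In this comparison lists held 170390 peaks, and the window had 146 and 166 peaks with PAX3-FOXO1 and 167 and 188 with vector. The difference was −21.5 (exact permutation test, two-sided p = 0.333, the smallest that 2 against 2 allows, so no difference in peak number could pass the threshold). With −log10 q of at least 10 it was −14.5 and among the 50000 strongest peaks +2.50, and the groups overlapped under both limits. A region was counted as gained when both PAX3-FOXO1 and neither vector list held it, and as lost in the reverse case. Of 231 regions, 17 (7.36%) were gained, against 8.13% over the series and 8.61% on chromosome 8. Another 35 (15.2%) were lost, against 8.44% over the series and 8.03% on chromosome 8. Both kinds were weak, with a median strength (the lower percentile of the pair of libraries that held the region) of 20.0 for lost and 13.1 for gained regions. Among the 50000 strongest peaks 3 were lost and 7 gained. The share over the series at that limit is not given here, so these counts have no background beside them.

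The leading gain was at +690.0 kb (chr8:129438069-129438526). It had no deposited peak with vector, and its percentile was 78.4 and 81.3 with PAX3-FOXO1. This region was also in all RH30 libraries except the first one with QC6352. The next gains, at −886.7, −466.2, +451.3 and −117.5 kb, had lower percentiles of 31.4 to 49.7 and no peak in any RH30 library. The leading losses, at −595.7 kb (57.9 and 60.8 with vector), −262.9, −906.5, +923.0 and +436.0 kb, also had no peak in RH30. Of the 17 gained regions 4 had a deposited RH30 peak (23.5%, against 54.3% of gained regions over the series). For lost regions it was 2 of 35 (5.71%, against 21.2%), and for the 103 regions in all 4 lists it was 52 (50.5%, against 72.3%).

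Among those 103 regions, strength moved both ways. PAX3-FOXO1 libraries both ranked higher at 33 (32.0%, against 28.7% over the series) and both lower at 32 (31.1%, against 38.7%). The median difference in percentile was −0.27 in the window and −1.28 over the series. The strongest that ranked higher were at −902.3 kb (96.9 and 94.7 with vector, 99.3 and 99.5 with PAX3-FOXO1), +282.7, −655.2, +182.1 and +190.4 kb. The strongest that ranked lower were at +213.7 kb (98.9 and 99.2 with vector, 96.9 and 97.9 with PAX3-FOXO1), +118.3, +115.8, +373.1 and −395.9 kb. The shift was widest at −395.9 kb among these 10, from 92.7 and 93.0 to 79.7 and 77.9.

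At equal list length the number of window peaks overlapped between QC6352 and DMSO, and the leading regions of the DMSO libraries ranked lower in both QC6352 libraries. With lists of 105136 peaks the window had 36 and 45 peaks in the QC6352 libraries and 41 and 44 in the DMSO ones, a difference of −2 (exact permutation test, two-sided p = 1). Without the first QC6352 library it was +2.50. Among the strongest peaks the groups did not overlap. With −log10 q of at least 10 the QC6352 libraries held 15 and 28 window peaks against 34 and 30 in the DMSO libraries, a difference of −10.5 (exact permutation p = 0.333, the smallest possible). Among the 50000 strongest there were 18 and 22 against 27 and 24, a difference of −5.5 (p = 0.333, same exact test). Of 55 regions in the lists of 105136 peaks, 4 (7.27%) were gained, against 6.44% over the series and 4.33% on chromosome 8. Another 4 (7.27%) were lost, against 7.25% over the series and 10.4% on chromosome 8. Both shares were near those over the series.

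Of the 26 regions in all 4 lists, both QC6352 libraries ranked lower at 12 (46.2%, against 28.7% over the series) and higher at 4 (15.4%, against 23.3%). The median difference in percentile was −5.62 in the window and −1.29 over the series. This count depended on the list length. As percentiles of the lists as deposited, both QC6352 libraries were lower at 8 of the 26 (30.8%, against 17.8% over the series) and higher at 5 (19.2%, against 29.6%), and the median difference was +2.48 in the window and +1.47 over the series. Of the 12 regions 11 lay after MYC, as did 21 of the 26. The regions at +282.7, +182.1 and +373.1 kb, with the highest ranks in DMSO, led the 12. At +282.7 kb the DMSO percentiles were 95.2 and 95.1 and the QC6352 ones 58.7 and 78.1. At +182.1 kb they went from 93.8 and 93.3 to 54.3 and 70.5, and at +373.1 kb from 92.2 and 92.0 to 54.3 and 82.5. The −902.3 kb region went from 89.1 and 81.2 to 62.5 and 59.0, and +633.9 kb from 84.3 and 79.0 to 42.9 and 70.5. At these 5 regions the groups lie apart because the rule that chose them asks for it. The QC6352 replicates lay further apart than the DMSO ones in 4 of the 5. Ties were wider with QC6352. The median window peak shared its value with 5.25% and 4.28% of the list there, and with 1.85% and 2.27% with DMSO. The part of ties in these ranks was not tested.

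The 4 that ranked higher with QC6352 were at +299.2, −873.3, −228.5 and +586.9 kb. At −228.5 kb (chr8:128519400-128520246) the percentiles were 41.4 and 36.9 with DMSO and 65.8 and 81.6 with QC6352. It was the only region between 100 and 500 kb before MYC with a deposited peak in all 14 libraries. In the LHCN libraries its percentile was 81.5 to 91.7.

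The 4 lost regions were after MYC, as were 41 of the 55, at +690.0, +589.7, +309.0 and +688.4 kb. The leading one, at +690.0 kb, was the region that PAX3-FOXO1 gained in LHCN. With DMSO its percentiles were 84.3 and 71.3. With QC6352 the first library had no peak and the second had a weak deposited one (fold 3.8). In the 6 hairpin libraries it ranked at 58.9 to 74.6 (lists of 93488 peaks). The lost region at +309.0 kb was 1 of the 5 found in RH30 alone. The gains, at +949.3, −67.5, +340.8 and +448.8 kb, reached percentiles of 27.0 to 59.0. Each also had a deposited peak in LHCN, as had 93.0% of all window regions found in RH30.

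The hairpin comparisons turned on which reading of the groups was used. By label, shKDM4B-813 had 42 and 39 window peaks against 25 and 26 for shCtrl, a difference of +15.0 (exact permutation test, two-sided p = 0.333, the smallest possible). By peak names, the shKDM4B-813 libraries had 25 and 26 against 34 and 33, a difference of −8 (p = 0.333, same exact test). For the other hairpin the difference was +8 by label (34 and 33 against 25 and 26) and +7 by peak names (42 and 39 against 34 and 33), each with exact permutation p = 0.333. Only for shKDM4B-814 was the sign the same under both. With both hairpins together it was +11.5 by label (exact permutation p = 0.0667, the smallest possible) and −0.50 by peak names (exact permutation p = 1). The label differences shrank among the strongest peaks, to +3.5 for shKDM4B-813, +2.5 for shKDM4B-814 and +3.0 for both among the 50000 strongest. Chromosome 8 as a whole moved the same way. It held 2061 and 2133 peaks in the libraries labelled shCtrl, 3186 and 2789 in those labelled shKDM4B-813, and 2774 and 2471 in those labelled shKDM4B-814. The window's share of these peaks was 1.21% and 1.22%, 1.32% and 1.40%, and 1.23% and 1.34% in the same order.

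Gained and lost regions followed the same split. By label, 11 of 49 regions (22.4%) were gained in shKDM4B-813, against 12.4% over the series and 19% on chromosome 8, and 1 (2.04%) was lost, against 8.01%. For shKDM4B-814, 4 of 44 (9.09%) were gained, against 6.69%, and 1 (2.27%) was lost, against 6.67%. With both hairpins 2 of 53 (3.77%) were gained, against 3.44%, and 0 were lost, against 4.51%. On chromosome 8 the lost shares were 2.99% for shKDM4B-813, 2.77% for shKDM4B-814 and 1.55% for both. The window's lost shares were nearer to these than to those over the series. Gained shares on chromosome 8 were 10.5% for shKDM4B-814 and 5.46% for both. These comparisons share the libraries labelled shCtrl. By peak names, shKDM4B-813 gained 1 (6.67% over the series) and lost 4 (6.69%), while shKDM4B-814 gained 5 of 51 (9.80%, against 5.93%) and lost 3 (5.88%, against 3.35%). Both together gained 0 (0.203%) and lost 2 (1.09%).

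**Figure D5:**
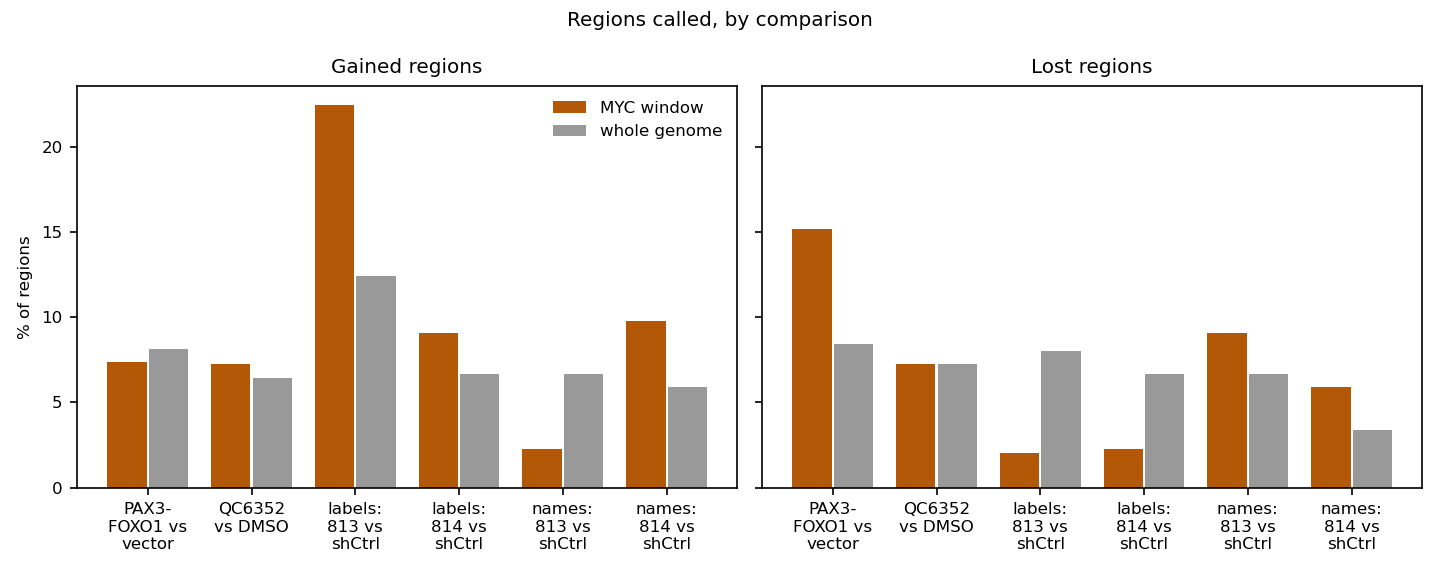
Share of regions gained and lost with PAX3-FOXO1, QC6352 and each hairpin, as a percentage of the regions compared, for the MYC window and for the whole series. Hairpin comparisons are drawn by label and by peak names. Among the comparisons drawn the window exceeds the series most for PAX3-FOXO1 losses (15.2% against 8.44%) and for gains in the libraries labelled shKDM4B-813 (22.4% against 12.4%).

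All 11 regions gained in the libraries labelled shKDM4B-813, whose peak names read sh814, were accessible in LHCN (74.3% of such regions over the series). This was near the share of all window regions found in RH30 (93.0%). The 15 regions in all libraries of this comparison all had an LHCN peak too. The leading gains were at −697.3 kb (73.3 and 61), −441.2 kb (54.3 and 73.7), −228.5 kb (54.3 and 36.7), +586.8 kb (35.5 and 61) and −510.9 kb (61 and 30.2). At −697.3 kb, 1 library labelled shKDM4B-814 was the only other RH30 library with a peak, while LHCN percentiles were 73.1 to 90.0. At −441.2 kb no other RH30 library had one. The gain at +7.09 kb, just beyond the end of MYC and named for its position after its values were seen, was likewise found in these 2 RH30 libraries and all 4 LHCN libraries.

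Regions common to the hairpin libraries were also compared by strength. Between the libraries labelled shKDM4B-813 and shCtrl, 2 of 15 regions ranked higher (13.3%, against 25.1% over the series) and 5 lower (33.3%, against 33.2%). For shKDM4B-814 it was 4 of 16 higher (25%, against 23.4%) and 4 lower (25%, against 25.8%). By peak names, shKDM4B-813 ranked higher at 4 of 16 regions (25%, against 25.8%) and lower at 4 (25%, against 23.4%). Under that reading shKDM4B-814 ranked higher at 4 of 23 regions (17.4%, against 23.4%) and lower at 8 (34.8%, against 28.1%). Over both hairpins, the same 14 regions gave 1 higher and 2 lower by label (14.7% and 16.6% over the series), and 1 higher and 1 lower by peak names (5.12% and 10.0%). At the part of the MYC start region nearest to the gene (chr8:128747938-128748653), the libraries labelled shCtrl ranked at 61.1 and 76.4. Those labelled shKDM4B-813 ranked at 31.1 and 30.2 and those labelled shKDM4B-814 at 60.5 and 49.5. By peak names the control libraries are the pair at 60.5 and 49.5. This part is 1 of the 2 lower regions by label over both hairpins, so the rule that chose it asks for the groups to lie apart. Over the whole start region the libraries labelled shCtrl (87.6 and 76.4) and shKDM4B-813 (58.9 and 78.1) overlapped. Those labelled shKDM4B-814 were lower there (64.8 and 63.4). As percentiles of the lists as deposited, the window counts changed to 1 higher and 5 lower of 15 for shKDM4B-813 and to 0 higher and 9 lower of 16 for shKDM4B-814, by label (33.4% and 51.0% lower over the series).

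Over both RH30 experiments, KDM4 perturbation by compound or hairpin gave a mean difference of +4.75 window peaks by label (exact permutation within experiments, 90 label sets, two-sided p = 0.189). By peak names it was −1.25 (exact permutation p = 0.778). Without the first QC6352 library it was +7 by label (exact permutation p = 0.0444). Leaving out any other library gave +2.50 to +5.5 (exact permutation p from 0.2 to 0.622). With −log10 q of at least 10 the difference was −0.75 (exact permutation p = 0.922), and among the 50000 strongest peaks −1.25 (exact permutation p = 0.633).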

How the data were processed

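ATAC-seq peaks of 14 libraries (7 groups of 2) were analysed, with 100000 cells per library per the labels. MACS2 2.1.1, SAMtools 1.3.1, Picard 1.65 and BWA 0.7.12-r1039 were used on hg19, per the submitters' processing notes. For the settings of these tools and a shift for the Tn5 cut, the sources used here give nothing. The authors deposited 1 narrowPeak list per library. In it the score was not used, the authors' fold is a ratio over background, and the deposited −log10 p and −log10 q are those of the peak caller. A list ends at its caller's limit (lowest −log10 q from 2.00 to 2.60) and holds no read counts, so depth and its precision are unknown.

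Lists were cut to the shortest one compared (170390 in LHCN, 105136 with the compound, 93488 otherwise), strongest first by −log10 q, then fold. Tied peaks were cut in a seeded random order, because cutting by position removes the last chromosomes first, and shared their mean rank. Peaks were merged into regions, and a library was present with an overlap of 1 bp. Gained regions were in all libraries of the first group and none of the second, and lost regions the reverse. Peak numbers were compared by exact permutation over libraries. The calling code was tested on simulated data. Python 3.11.15, pandas 2.3.3, numpy 2.4.6 and matplotlib 3.10.9 were used.

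Named regions were those within 5 kb of the MYC start, the 10 regions of all 14 lists with the highest median percentile, the 5 strongest of 1 line only, and the 5 strongest per comparison and direction. The interval, members and rules were chosen with earlier results of these data known. Groups by peak names, the comparison of ranks (also within lists as deposited), pooled tests, crossed pairs and the tie order were added after seeing the data. Alternatives were the lists as deposited, −log10 q of at least 10, the 50000 strongest peaks, cover of 50% of a region, replicate blocks and leaving out each library. Marker genes, sequences and PVT1's exons were not analysed here. Replicate numbers come from the titles, which do not say that they pair libraries.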

Additional observations from a re-analysis of the deposited data

How the results depend on the processing

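The difference between the lines in window peaks kept its direction and its side of the threshold under every alternative tried, from −129 in the lists as deposited to −28.8 among the 50000 strongest peaks, and from −54.8 to −51.5 when any 1 library was left out. Counts of gained and lost regions depended on the cutoff. Region totals and series shares under each limit are not given here. The counts below therefore have no background beside them and are not results about the window. Among the 50000 strongest peaks PAX3-FOXO1 gained 7 and lost 3 regions and its difference in peak number turned to +2.50. With −log10 q of at least 10 it lost 21. QC6352 gained 1 region under each of these limits. The libraries labelled shKDM4B-813 gained 4 and lost 4 among the 50000 strongest, and lost 0 as deposited. Those labelled shKDM4B-814 gained 2 as deposited and 2 among the 50000 strongest, and lost 0 at −log10 q of 10 and among the 50000 strongest. Both hairpins together gained 1 as deposited, 1 at −log10 q of 10 and 0 among the 50000 strongest. RH30 controls against vector gained 1 as deposited and 1 at −log10 q of 10, and lost 118, 90 and 24 under the 3 limits in that order. The pooled KDM4 difference turned to −0.75 at −log10 q of 10 and −1.25 among the 50000 strongest.

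With hairpin groups as in the peak names, the shKDM4B-813 difference turned to −8 with 1 region gained and 4 lost, shKDM4B-814 lost 3, both together came to −0.50 with 0 gained and 2 lost, and the pooled difference to −1.25. Other hairpin counts here, under the limits and with a library left out, are by label. Why the limits and readings gave these counts was not tested.

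With 1 library left out, regions gained and lost ranged over 20 to 32 and 38 to 54 for PAX3-FOXO1, 4 to 8 and 5 to 10 for QC6352, 13 to 17 and 1 to 4 for shKDM4B-813, and 7 to 9 and 1 to 3 for shKDM4B-814. They ranged over 2 to 6 and 0 to 1 for both hairpins, and 2 to 4 and 48 to 58 for RH30 controls. Fewer libraries make the rule easier to meet. No series share with a library left out is given here, so these ranges are not results about the window. Differences in peak number ranged over −32.0 to −11.0, −6.50 to +2.50, +13.5 to +16.5, +7.50 to +8.50, +9.83 to +12.8 and −59.2 to −53.2 in the same order, and +2.50 to +7 for the pooled one. QC6352 turned positive without its first library.

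Same-numbered libraries deviated together with correlations of 0.0588, −0.116, 0.0072 and 0.026 in the 4 comparisons of 2 against 2, so the numbers were not taken as pairs. With a replicate block the counts of gained and lost regions (17 and 35 for PAX3-FOXO1, 4 and 4 for QC6352 also with numbers crossed, 11 and 1, and 4 and 1 for the hairpins) cannot change, because the rule already asks for every library, so they say nothing of stability. The exact p for peak number with the block was 0.5 for PAX3-FOXO1 and each hairpin, its smallest value, and 1 for QC6352. Depth is unknown, and no limit from it can be given.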
